A study of Mus musculus with 6 samples.

Results

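Collagen chains of type IV and type VI were followed in mouse dorsal skin, in 3 wild-type and 3 Tsk samples profiled by RNA sequencing. The members are 10 genes picked by name out of 55291 in the deposited count table. They are 6 type IV chain genes (Col4a1 to Col4a6) and 4 type VI chain genes (Col6a1, Col6a2, Col6a3 and Col6a6). All 10 passed the filter on low counts that left 19971 genes for testing. The other type VI chain genes of the table, Col6a4 and Col6a5, held 3 to 16 and 19 to 115 counts per library.

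Wild-type mice were labelled C57BL/6, and Tsk mice B6.Cg-Fbn1Tsk/J with the genotype written as Fbn1+/-. All were 40 days old, and no treatment is named in the labels. Tsk is known as a tight-skin allele of Fbn1, an internal duplication in the gene of fibrillin 1, so the labels' notation for a lost copy is at odds with the strain name. The tissue was a piece of shaved dorsal skin, a mixture of epidermis, hair follicles, dermis, fat and muscle, and every cell of a Tsk mouse carries the allele. The labels number the samples without tying each to its own animal, and the tests therefore rest on spread that may be technical. Library totals lay between 17561271 and 19219622 counts. Counts of Fbn1 were 4684, 5420 and 4765 in the wild-type libraries against 27971, 43910 and 37855 in those of Tsk, which separates the groups by label.

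Type IV collagen forms the sheet-like network of basement membranes, under epithelia and around vessels, muscle fibres, fat cells and nerves. Its chains wind into trimers of fixed composition, and the trimer of Col4a1 and Col4a2 chains occurs in nearly all basement membranes, whereas the chains of the other type IV genes have restricted sites. Type VI collagen forms beaded microfilaments in the matrix next to basement membranes and around muscle fibres, from trimers of Col6a1, Col6a2 and Col6a3 chains. The Col6a6 chain, like those of Col6a4 and Col6a5, is related to the Col6a3 chain and is thought to take its place in some trimers.

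The type IV genes lie in neighbouring couples that are read away from each other. The sequence between such neighbours is shown because the couples differed in how closely their levels matched over the libraries. The measure used for this mixes direction and size of movement. Any link between sequence and levels was not tested. On mm10, Col4a1 (chr8:11198423-11312826, minus strand) and Col4a2 (chr8:11312805-11449287, plus strand) overlap at their annotated first exons by 22 bases. Col4a4 (chr1:82448423-82586849, minus strand) and Col4a3 (chr1:82586921-82722059, plus strand) are 71 bases apart. Col4a6 (chrX:141165403-141474076, minus strand) and Col4a5 (chrX:141475385-141689234, plus strand) are 1308 bases apart. Col6a2 (chr10:76595762-76623630) and Col6a1 (chr10:76708792-76726168) sit on the same minus strand with 85161 bases between them. Col6a3 (chr1:90765923-90843971) and Col6a6 (chr9:105687809-105828160) stand alone, also on the minus strand. Sequences come from RefSeq promoter windows of build GRCm38.p6, the assembly that mm10 names, each reaching from 250 bases before to 50 bases after a gene's start. Such windows were found for 9 of the 10 members, all but Col4a3. Printed 5′ to 3′ on the strand of the gene named, they are the exon overlap, read on the Col4a2 strand (chr8:11312805-11312826), the gap on the Col4a4 strand (chr1:82586850-82586920), and bases outside annotated exons upstream of Col4a5 (chrX:141475169-141475384), Col4a6 (chrX:141474077-141474326), Col6a1 (chr10:76726169-76726294) and Col6a2 (chr10:76623631-76623880). Capitals mark matches on either strand to the GC box GGGCGG, the CCAAT box CCAAT, the TATA box TATAAA or the CTC box CCCTCCCC.
Col4a1/Col4a2 overlap: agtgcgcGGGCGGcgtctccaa
Col4a3/Col4a4 gap: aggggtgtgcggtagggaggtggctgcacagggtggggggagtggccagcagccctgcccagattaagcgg
upstream of Col4a5: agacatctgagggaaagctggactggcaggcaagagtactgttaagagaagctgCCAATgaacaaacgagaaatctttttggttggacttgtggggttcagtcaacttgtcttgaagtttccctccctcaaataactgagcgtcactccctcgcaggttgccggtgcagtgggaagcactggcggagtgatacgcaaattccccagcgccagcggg
upstream of Col4a6: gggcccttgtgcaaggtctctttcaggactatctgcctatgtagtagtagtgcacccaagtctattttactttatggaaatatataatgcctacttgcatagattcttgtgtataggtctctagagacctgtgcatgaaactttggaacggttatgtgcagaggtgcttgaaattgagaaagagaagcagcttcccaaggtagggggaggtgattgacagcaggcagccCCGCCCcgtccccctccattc
upstream of Col6a1: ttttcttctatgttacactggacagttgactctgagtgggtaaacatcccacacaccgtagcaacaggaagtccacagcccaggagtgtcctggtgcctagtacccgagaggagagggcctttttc
upstream of Col6a2: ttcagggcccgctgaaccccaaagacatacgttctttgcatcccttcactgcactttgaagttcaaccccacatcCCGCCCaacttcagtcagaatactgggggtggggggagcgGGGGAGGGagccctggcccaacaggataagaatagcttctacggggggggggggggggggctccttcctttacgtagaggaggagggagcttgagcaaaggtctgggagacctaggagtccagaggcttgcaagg

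Over the whole windows of 300 bases, those of Col4a1 and Col4a2, which overlap each other, each held a CCAAT box, a CTC box and at least 1 GC box, and so did the window of Col4a5. The windows of Col4a4 and Col6a3 held none of the motifs searched. No member window held TATAAA, which 13.6% of all 32851 mouse windows of this length held on either strand, against 37.4% for CCAAT, 35.7% for GGGCGG and 10.8% for CCCTCCCC. The GC content was 74.0% in the Col4a1 window and 48.3% in the Col4a6 window, against a median of 52.7% over all windows. These matches are letters in a window and say nothing on whether a factor binds there.

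The comparison asked how Tsk skin differed from wild-type skin. None of the 10 collagen chain genes was called at an adjusted p under 0.05 by edgeR's quasi-likelihood test, with adjusted p-values of 0.213 to 0.966. Of all tested genes, 3.42% (683 of 19971) were called. With 3 libraries a group, not being called does not show that a gene was unchanged. Without adjustment, 2 members had p under 0.05, Col4a5 and Col4a6, both lower in Tsk, where 20.1% of all genes did. DESeq2 and limma-voom also called 0 of the 10. The median log2 fold change of the members was 0.12, with 6 of 10 above 0, beside -0.03 and 47.0% above 0 over all genes. Their estimates ran from -0.56 for Col4a6 to 0.43 for Col6a1. In 1 of the 10, Col4a5, the groups did not overlap, where 10.6% of all genes were separated in that direction, 14.1% in the other and 24.7% in either. With library totals alone as the scaling the median of all genes moved to 0.25 and Col4a2 passed (log2 fold change 0.68, edgeR adjusted p = 0.0481). Col4a3 and Col6a6 then turned from below to above 0. TMM factors were 1.03, 0.82 and 0.89 for wild-type replicates 1, 2 and 3. They were 1.06, 1.12 and 1.13 for Tsk replicates 4, 5 and 6, every Tsk factor being the larger. The choice of scaling thus moves the groups against each other, and which scaling is right was not tested. The number of all genes called rested on single libraries, at 1381 without wild-type replicate 1, 328 without wild-type replicate 2, 63 without wild-type replicate 3, 402 without Tsk replicate 5 and 388 without Tsk replicate 6. The split of those calls was 544 higher and 139 lower, and 1695 and 96 with library totals alone.

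**Figure D1:**
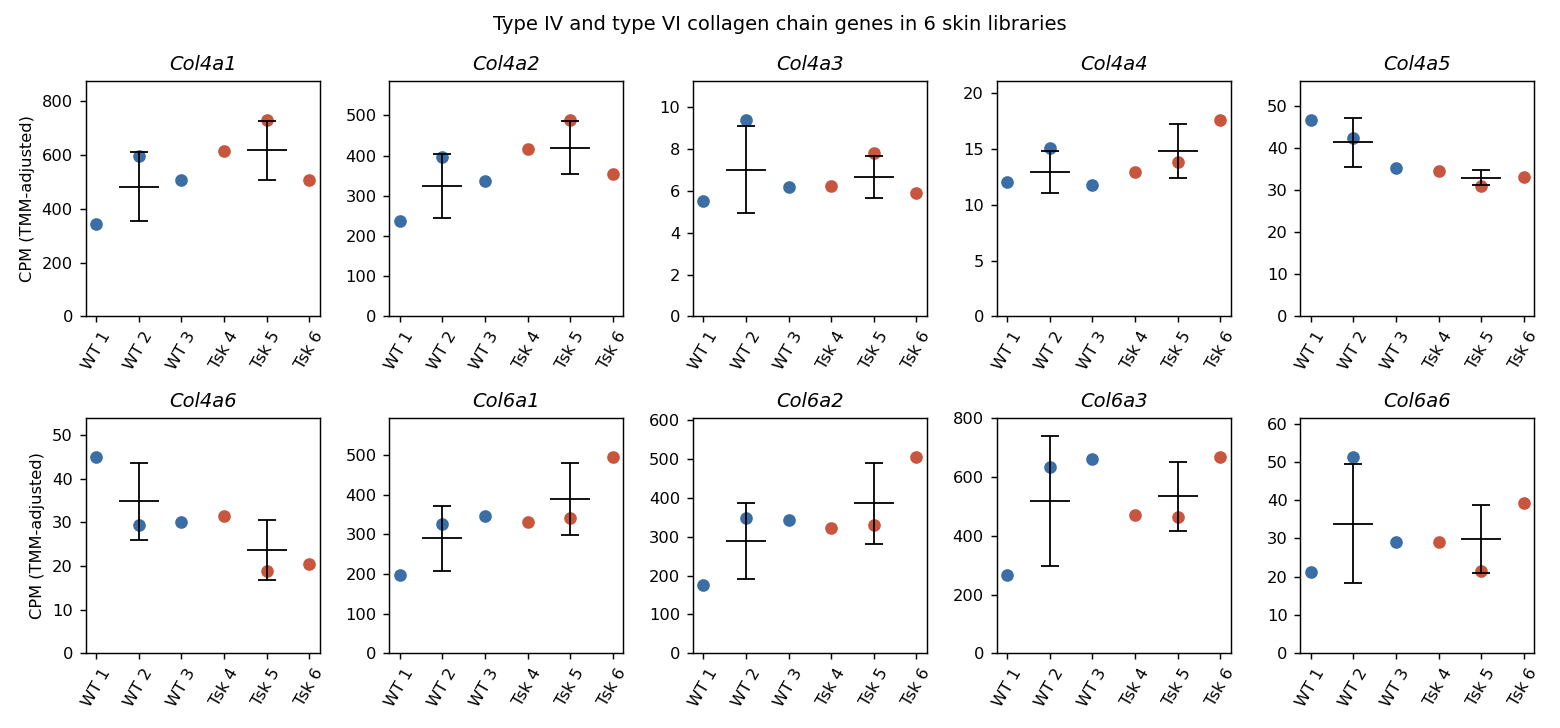
Level of each collagen chain gene in CPM (TMM-adjusted) on axes from 0, in 3 wild-type (blue) and 3 Tsk (red) libraries numbered by replicate, with bars for the group mean and SD (n = 3). The groups overlap in every panel but that of Col4a5, whose Tsk libraries lie from 31.2 to 34.7 CPM and wild-type libraries from 35.2 to 46.7.

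Col4a1 and Col4a2, which encode the chains of the common basement membrane trimer, were the most abundant type IV genes. Values are CPM, a count scaled to its library total after TMM adjustment. Col4a1 stood at 343, 597 and 507 CPM in wild-type replicates 1, 2 and 3 and at 615, 730 and 509 CPM in Tsk replicates 4, 5 and 6. Wild-type replicate 1 was the lowest library and the groups overlapped, since Tsk replicate 6 lay below wild-type replicate 2. The log2 fold change was 0.36 ± 0.25 (SE, edgeR adjusted p = 0.472), with a 95% confidence interval of -0.21 to 0.92. Col4a2 stood at 238, 397 and 337 CPM in wild type and at 417, 488 and 355 CPM in Tsk, in the same order of libraries. Its log2 fold change was 0.37 ± 0.23 (SE, edgeR adjusted p = 0.404), with an interval of -0.14 to 0.89. In this fit the upper ends of the intervals correspond to 1.89-fold for Col4a1 and 1.85-fold for Col4a2. The estimates rested on single libraries. Col4a1 stood at 0.19 without wild-type replicate 1, 0.22 without Tsk replicate 5 and 0.55 without wild-type replicate 2, and Col4a2 at 0.22 without wild-type replicate 1. With library totals alone they were 0.66 and 0.68.

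Col4a3 and Col4a4 encode chains best known from the basement membrane of the kidney glomerulus, where they are altered in Alport syndrome. They were the scarcest members. Col4a3 stood at 5.50, 9.38 and 6.20 CPM in wild type and 6.26, 7.84 and 5.92 CPM in Tsk, all Tsk values within the wild-type range. Its log2 fold change was -0.07 ± 0.23 (SE, edgeR adjusted p = 0.904) and its direction flipped to 0.23 with library totals alone. Col4a4 stood at 12.01, 15.1 and 11.7 CPM in wild type and 12.95, 13.9 and 17.6 CPM in Tsk, with Tsk replicate 6 highest. For this gene the log2 fold change was 0.20 ± 0.17 (SE, edgeR adjusted p = 0.576), and it was 0.05 without Tsk replicate 6 and 0.33 without wild-type replicate 2. Col4a3 rested on 99 to 168 counts per library.

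Col4a5 and Col4a6, the X-linked type IV genes, encode chains that form a trimer of their own in the basement membrane under the epidermis and around smooth muscle. Both had lower mean levels in Tsk, without passing the test. Col4a5 stood at 46.7, 42.6 and 35.2 CPM in wild type and 34.7, 31.2 and 33.2 CPM in Tsk. Every Tsk library lay below every wild-type library, the gap between wild-type replicate 3 and Tsk replicate 4 being the narrowest. The log2 fold change by edgeR was -0.33 ± 0.13 (SE, adjusted p = 0.213), with an interval of -0.63 to -0.03. It was -0.21 without wild-type replicate 1 and -0.06 with library totals alone. Col4a6 stood at 45.0, 29.5 and 30.1 CPM in wild type and 31.5, 18.8 and 20.6 CPM in Tsk. Tsk replicate 4 lay among the wild-type libraries, and wild-type replicate 1 stood highest. The log2 fold change was -0.56 ± 0.24 (SE, edgeR adjusted p = 0.234), and -0.31 without wild-type replicate 1.

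Col6a1 and Col6a2, obligate chains of type VI collagen whose defects cause muscle and joint disease in humans, had nearly equal levels. Col6a1 stood at 197, 325 and 347 CPM in wild type and 332, 341 and 495 CPM in Tsk. Wild-type replicate 1 was lowest, Tsk replicate 6 highest, and the other 4 libraries lay close together. Its log2 fold change was 0.43 ± 0.26 (SE, edgeR adjusted p = 0.404), with an interval of -0.16 to 1.02. Col6a2 stood at 177, 347 and 342 CPM in wild type and 322, 330 and 506 CPM in Tsk, the same arrangement. By edgeR, Col6a2 differed by 0.42 ± 0.29 on the log2 scale (SE, adjusted p = 0.478), with an interval of -0.25 to 1.09. Without Tsk replicate 6 the estimates were 0.22 for Col6a1 and 0.18 for Col6a2, and without wild-type replicate 1 they were 0.24 and 0.19. Other settings gave larger values, such as 0.59 and 0.58 without wild-type replicate 3. With library totals alone both stood at 0.73, neither passing (edgeR adjusted p = 0.0684 and 0.0998).

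Col6a3 encodes the longest chain of the trimer, whose released end fragment is known as endotrophin. It stood at 265, 634 and 661 CPM in wild type and 471, 463 and 669 CPM in Tsk, so that wild-type replicate 1 lay below all others and wild-type replicates 2 and 3 lay with Tsk replicate 6. The log2 fold change was 0.04 ± 0.34 (SE, edgeR adjusted p = 0.966), with an interval of -0.74 to 0.82. It turned to -0.25 without wild-type replicate 1 and to -0.15 without Tsk replicate 6. Col6a6 stood at 21.3, 51.3 and 29.0 CPM in wild type and 29.1, 21.5 and 39.1 CPM in Tsk, with wild-type replicate 2 highest. For Col6a6 the log2 fold change was -0.18 ± 0.33 (SE, edgeR adjusted p = 0.818). In the related gene Col6a5, which is no member, all Tsk libraries (2.22, 1.95 and 5.40 CPM) lay above all wild-type libraries (1.11, 1.246 and 1.93 CPM), the highest wild-type and lowest Tsk values nearly touching. Its log2 fold change of 1.17 ± 0.44 did not pass (SE, edgeR adjusted p = 0.184) and was 0.56 without Tsk replicate 6.

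Divided by the length of all annotated exons of a gene, levels in wild type were 66.1 ± 18.5 CPM per kilobase for Col6a1, 64.7 ± 17.2 for Col4a1, 48.9 ± 12.1 for Col4a2, 43.5 ± 18.5 for Col6a3 and 34.7 ± 11.7 for Col6a2 (SD, n = 3 each). The ranges of neighbours in this order overlapped, and Col6a1 exceeded Col4a1 in 1 of 3 libraries. A wide gap followed, with no overlap, to Col4a5 at 6.18 ± 0.865, Col4a6 at 4.37 ± 1.11 and Col6a6 at 3.69 ± 1.70 CPM per kilobase, which overlapped in range from neighbour to neighbour. Col4a4 at 1.22 ± 0.175 and Col4a3 at 0.705 ± 0.208 came last, each below every library of the gene before it. In Tsk skin the highest means were 88.9 ± 21.0 CPM per kilobase for Col6a1 and 82.8 ± 14.8 for Col4a1, with overlapping ranges and Col6a1 above in 1 of 3 libraries, and Col4a3 was lowest at 0.669 ± 0.103. Per kilobase of the longest coding sequence, Col6a2 moved up from the fifth place to the third in wild type, at 93.1 ± 31.3 beside 96.4 ± 25.7 for Col4a1 and 94.2 ± 26.4 for Col6a1, because many of its annotated exon bases are noncoding.

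Within each library the 2 chains of the common type IV trimer kept a nearly fixed ratio. The log2 ratio of Col4a1 to Col4a2 was 0.53, 0.59 and 0.59 in wild type and 0.56, 0.58 and 0.52 in Tsk. The 6 values spanned 0.52 to 0.59 while the level of Col4a1 itself ran from 343 to 730 CPM. The group means were 0.57 ± 0.04 and 0.55 ± 0.03 (SD, n = 3 each, two-sided exact permutation p = 0.5). With 3 libraries against 3, this test cannot give a p below 0.1, and 5 ratios were tested, so none could pass. Col6a1 and Col6a2 counts were also near balance, with log2 ratios of 0.15, -0.09 and 0.02 in wild type and 0.04, 0.04 and -0.03 in Tsk (two-sided exact permutation p = 1.0).

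Col6a3 did not keep such a ratio to Col6a1. The log2 ratio was 0.43, 0.96 and 0.93 in wild-type replicates 1, 2 and 3 and 0.51, 0.44 and 0.43 in Tsk replicates 4, 5 and 6. Wild-type replicate 1 thus lay with the Tsk libraries, apart from the other wild-type libraries. Group means were 0.77 ± 0.30 and 0.46 ± 0.04 (SD, n = 3 each, two-sided exact permutation p = 0.4), and the difference of -0.31 was -0.49 without wild-type replicate 1. Skeletal muscle markers, a list of 16 genes, took 16.1, 23.3 and 22.1% of counts in the wild-type libraries and 15.8, 14.8 and 13.97% in those of Tsk, which sets the same 2 wild-type libraries apart. The part of muscle content in this ratio was not tested.

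Col4a5 and Col4a1 encode chains of different type IV trimers. Their log2 ratio was -2.88, -3.81 and -3.85 in wild type and -4.15, -4.55 and -3.94 in Tsk, with all Tsk libraries lower. Group means were -3.51 ± 0.55 and -4.21 ± 0.31 (SD, n = 3 each, two-sided exact permutation p = 0.1, the smallest this design allows). The difference of -0.70 was -0.38 without wild-type replicate 1, which stood apart from the other wild-type libraries. The X-linked genes Col4a5 and Col4a6 together made up 13.3, 6.61 and 7.04% of all type IV counts in the wild-type libraries against 5.93, 3.87 and 5.71% in the Tsk libraries, while Col4a1 and Col4a2 made up 84.2, 91.2 and 91.0% and 92.4, 94.4 and 91.8%. Summed type VI over summed type IV counts gave log2 ratios of -0.07, 0.32 and 0.57 in wild type and 0.05, -0.16 and 0.86 in Tsk, with no separation (two-sided exact permutation p = 1.0). Each sum alone, as a share of the library total without TMM adjustment, was larger for every Tsk library. On that scaling the median log2 fold change of all genes was itself 0.25, so these shares are not set against an unmoved background. Type IV took 0.071, 0.090 and 0.082% for wild-type replicates 1, 2 and 3, against 0.119, 0.144 and 0.106% for Tsk replicates 4, 5 and 6. Type VI took 0.068, 0.112 and 0.122% against 0.123, 0.129 and 0.193%, wild-type replicate 3 and Tsk replicate 4 nearly touching.

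**Figure D2:**
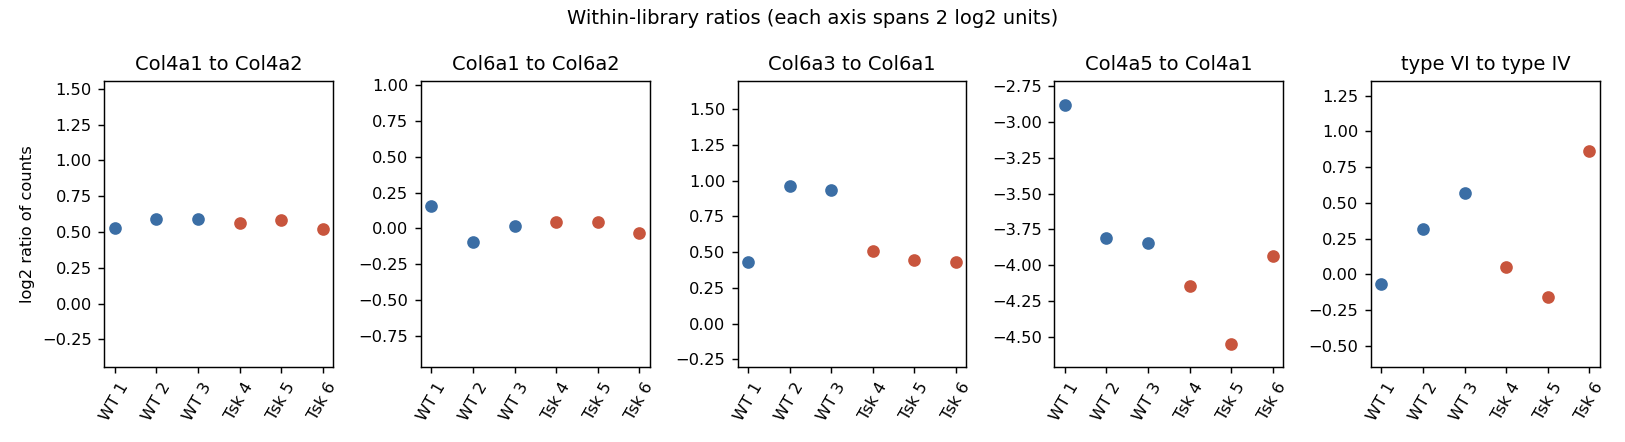
Log2 ratio of counts of the genes named above each panel in 3 wild-type (blue) and 3 Tsk (red) libraries, each axis spanning 2 log2 units. Col4a1 to Col4a2 stays between 0.52 and 0.59 in all 6 libraries, Col6a3 to Col6a1 is 0.93 or more only in wild-type replicates 2 and 3, and Col4a5 to Col4a1 is lower in every Tsk library.

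The closeness of patterns was measured as the root mean square difference between the log2 CPM of 2 genes over the 6 libraries, each centred on its own mean. Col4a2 lay 0.03 from Col4a1, and among the 15326 other genes whose average log2 CPM was 1 or more, each was the nearest gene to the other. Col6a1 and Col6a2 lay 0.08 apart and were likewise each other's nearest gene, although 85161 bases lie between them. Col6a3 ranked 211 from Col6a1 and 38 from Col6a2, which in turn ranked 27 and 11 from Col6a3. The other type IV neighbours on the genome lay further apart by this measure. Col4a3 and Col4a4 differed by 0.28, Col4a4 ranking 4505 from Col4a3 and Col4a3 5977 from Col4a4. Col4a5 and Col4a6 differed by 0.27, Col4a6 ranking 6103 from Col4a5 and Col4a5 452 from Col4a6. Their own profiles had root mean squares of 0.20 and 0.42, so unequal size of movement adds to this distance. A gene that did not move at all would lie 0.20 from Col4a5, nearer than Col4a6, so these ranks do not show that the couple moved in different directions. The count of Col4a3 did not exceed 168 in a library. Overlapping genes may add reads where strand was not used in counting, a setting not given in the sources used here, but no other gene overlapping a member exceeded 19.1 counts in a library.

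**Figure D3:**
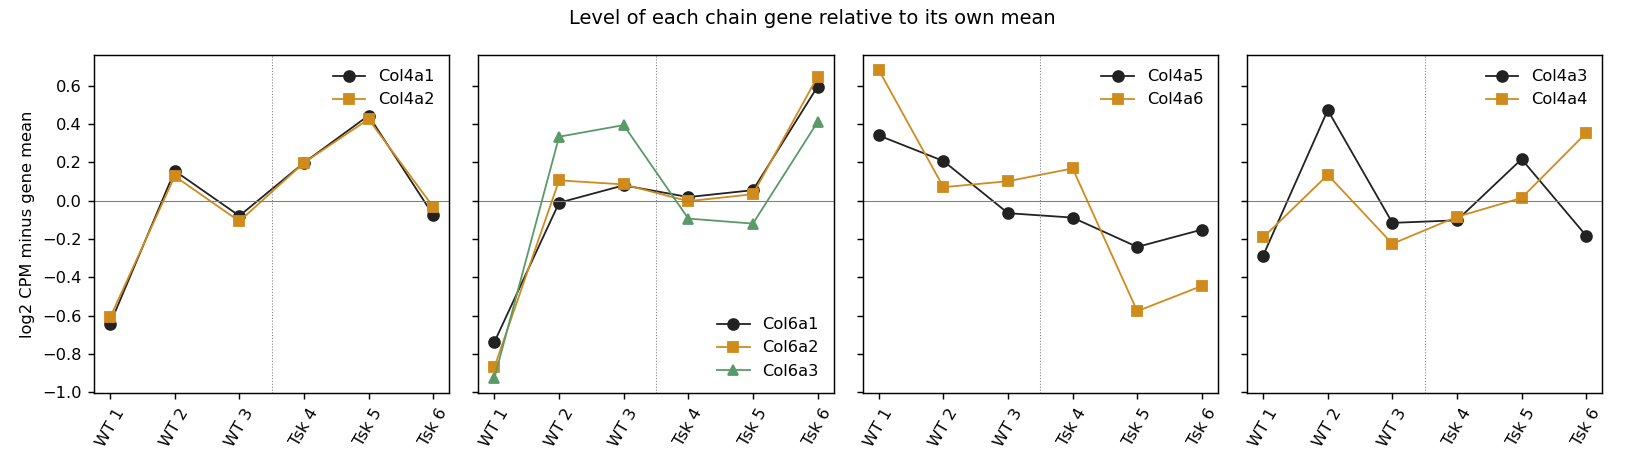
Log2 CPM of each gene minus its own mean in 6 libraries, with lines joining the points of a gene and a dotted line between wild type and Tsk. Col4a1 and Col4a2 coincide to within a root mean square of 0.03, Col6a1 and Col6a2 to within 0.08, Col6a3 departs in wild-type replicates 2 and 3, and the other couples differ by 0.27 to 0.28.

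Among 15317 genes that are no members, those with the pattern most like the mean of Col4a1 and Col4a2 were Cnnm4 at 0.067 (root mean square difference, log2), Col15a1 at 0.068, Msx1 at 0.086, Smpd1 at 0.087 and Acss1 at 0.096, where the collagen profile itself had a root mean square of 0.33. Col15a1 encodes a collagen that sits at basement membranes of vessels and muscle. The genes most like the mean of Col6a1, Col6a2 and Col6a3 were Slc12a5 at 0.096, Gm28512 at 0.11, Crispld2 at 0.12, Lonrf2 at 0.12 and Mmp19 at 0.13, where the collagen profile had a root mean square of 0.42.

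Of 25 partner genes of the basement membrane, 5 were higher in Tsk and 0 lower, where 2.72% of all genes were called higher and 0.696% lower. The list's median log2 fold change was 0.38, with 16 of 25 above 0. At the low end, the laminin chain gene Lama3 stood at -0.62 and Npnt at -0.95, neither called. The laminin chains Lama4, Lamc3 and Lamb1 rose by 1.16 ± 0.17, 2.30 ± 0.34 and 1.05 ± 0.19 (log2 fold change ± SE), and Frem1, of an adhesion complex under the epidermis, rose by 1.66 ± 0.30. Nid1, which links laminin to type IV collagen, was named as the last of the 5 after the values were seen, and rose from 189 ± 75.3 to 518 ± 128 CPM (SD, n = 3 each, edgeR adjusted p = 0.0461). Without wild-type replicate 3, only 63 genes in all were called, against 683 with every library. None of these 5 passed there, with edgeR adjusted p of 0.0735 for Lama4, 0.0804 for Lamc3, 0.103 for Lamb1, 0.115 for Frem1 and 0.172 for Nid1. Their log2 fold changes in that fit stood at 1.16, 2.26, 1.06, 1.57 and 1.44 in that order. Lamb1 and Nid1 also failed without Tsk replicate 5 (0.0543 and 0.110) and without Tsk replicate 6 (0.0525 and 0.114), Nid1 by limma-voom (0.0551), and Frem1 without Tsk replicate 4 (0.0597) and 6 (0.0684).

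Within libraries, the log2 ratio of Nid1 to Col4a1 was -1.54, -1.16 and -1.48 in wild type and -0.72, -0.25 and 0.16 in Tsk, and that of Lama4 to Col4a1 was -3.10, -3.56 and -3.50 against -2.87, -2.58 and -2.42. In both, every Tsk library lay above every wild-type library. The ratios of Pxdn to Col4a1 (-2.46, -3.11 and -2.83 against -2.52, -2.58 and -2.23) and of Antxr1 to Col6a1 (-1.32, -2.41 and -2.30 against -1.53, -1.62 and -1.82) overlapped between the groups. These ratios of partner genes to collagen genes were chosen after the values were seen and carry no test.

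In the list on type IV cross-linking and turnover, 3 of 9 genes were higher and 0 lower, beside 2.72% and 0.696% of all genes. The list's median log2 fold change was 0.74, beside -0.03 over all genes. Like the other lists, it was chosen with earlier results of these data known. Pxdn, the peroxidase that forms sulfilimine bonds between type IV trimers, stood at 62.3, 69.2 and 71.2 CPM in wild type and 107, 122 and 108 CPM in Tsk, a rise of 0.74 ± 0.13 (log2 fold change ± SE, edgeR adjusted p = 0.0195). Its groups were well apart. The inhibitor Timp2 and the membrane protease Mmp14 rose by 1.27 ± 0.26 and 1.26 ± 0.26. Pxdn did not pass without wild-type replicate 2 (edgeR adjusted p = 0.0583), wild-type replicate 3 (0.0875) or Tsk replicate 5 (0.0585). Among the fits with 1 library left out, Mmp14 passed only without Tsk replicate 5 and Timp2 only without Tsk replicate 4. In the other such fits the edgeR adjusted p was 0.0727 to 0.0914 for Mmp14 and 0.0592 to 0.132 for Timp2.

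Of 10 partners of type VI collagen, 1 was higher, beside 2.72% of all genes. It was Bmp1, a protease that processes procollagens and is known to cut the end of the Col6a3 chain, at 1.23 ± 0.19 (log2 fold change ± SE, edgeR adjusted p = 0.0156). The list's median was 0.97 with all 10 above 0. Among 12 collagen receptors 2 were higher, the tyrosine kinase Ddr2 at 1.498 ± 0.22 (edgeR adjusted p = 0.0138) and the type VI collagen receptor Antxr1 at 0.80 ± 0.15 (edgeR adjusted p = 0.0285), with a median of 0.41. Of 20 genes for collagen modification and export 1 was higher, a share near that of all genes. It was Crtap at 0.94 ± 0.13 (edgeR adjusted p = 0.0115), with a median of 0.28. None of these lists had a member called lower, beside 0.696% of all genes. Without wild-type replicate 3, where only 63 genes in all were called, Bmp1, Ddr2, Crtap and Antxr1 did not pass (edgeR adjusted p = 0.0610, 0.0804, 0.0548 and 0.136). Antxr1 also failed without wild-type replicate 2 (0.0982), Tsk replicate 4 (0.0556) and Tsk replicate 6 (0.0702).

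With the mean log2 level of skeletal muscle markers as a covariate, only 10 genes in all were called, against 683 in the main fit. None of the 12 called partner genes passed with the covariate (edgeR adjusted p = 0.0867 to 0.414), while their estimates stayed above 0. They were larger than without it for Lama4 (1.33), Lamb1 (1.38), Nid1 (2.13), Frem1 (1.84), Pxdn (0.84), Timp2 (1.34), Bmp1 (1.35) and Crtap (1.07), and smaller for Lamc3 (1.79), Mmp14 (1.08), Ddr2 (1.10) and Antxr1 (0.57).

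**Figure D4:**
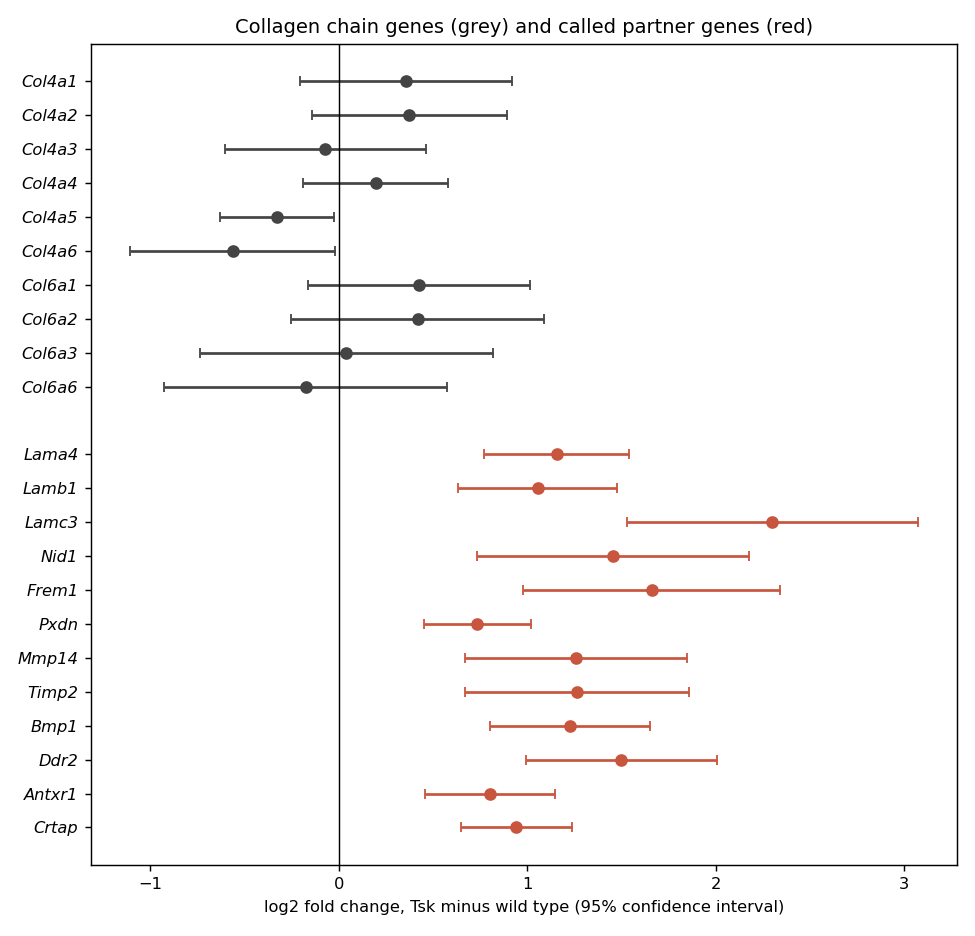
Log2 fold change, Tsk minus wild type, with 95% confidence intervals from edgeR, for the 10 collagen chain genes (grey) and the 12 partner genes called at adjusted p under 0.05 (red). The grey estimates lie between -0.56 and 0.43, and all red intervals lie above 0. Calling the red genes by p fixes in advance that their intervals exclude 0.

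Marker genes of other cell types were measured in the same libraries. Over all genes, 2.72% were called higher and 0.696% lower. In bulk skin, fewer cells of a type and less RNA per cell cannot be told apart. Endothelial markers summed to 235 to 327 CPM in wild type and 422 to 604 CPM in Tsk, with 4 of 14 called higher. Fibroblast markers summed to 6280 to 10999 and 18685 to 42552 CPM, with 5 of 12 called higher. The fibroblast sum was led by Col1a1, Col1a2 and Col3a1, none of them called (edgeR adjusted p = 0.0613, 0.0812 and 0.115). Among the 5 called, the highest group mean was 160 CPM, for Pi16 in Tsk. Adipocyte markers summed to 626 to 1059 CPM in wild type and 1041 to 4651 CPM in Tsk, overlapping ranges, with 3 of 12 called higher. Their mean log2 level was 4.44, 4.73 and 4.37 in wild-type replicates 1, 2 and 3. It was 5.95, 7.80 and 5.45 in Tsk replicates 4, 5 and 6, so Tsk replicate 5 stood far above the rest. Markers of pericytes and smooth muscle had 2 of 12 called higher and summed to 2209 to 3186 and 1792 to 2150 CPM, a sum led by Des, which skeletal muscle also expresses. Schwann cell markers had 2 of 10 called higher, at 239 to 343 and 355 to 555 CPM. Of 8 basal epidermis markers 0 were called and all were below 0, at 7427 to 9931 and 5055 to 7699 CPM, and of 8 macrophage markers 0 were called and all were above 0, at 241 to 300 and 324 to 891 CPM. No marker was at 0 counts in every library. The 16 skeletal muscle markers, of which 0 were called and 2 were above 0, summed to 157318 to 282645 CPM in wild type and 123762 to 148914 CPM in Tsk. With their mean log2 level as a covariate, the log2 fold change was 0.91 for Col4a1, 0.87 for Col4a2, 0.88 for Col6a1, 1.02 for Col6a2, 0.92 for Col6a3, 0.52 for Col6a6, 0.36 for Col4a3, 0.27 for Col4a4, -0.46 for Col4a5 and -0.82 for Col4a6, none past the threshold (edgeR adjusted p = 0.155 to 0.728 over the 10 members), and 10 genes in all were called. Wild-type replicate 1, which was lowest in 7 of the 10 members and highest in the X-linked Col4a5 and Col4a6, had a mean log2 muscle marker level of 11.63, within the Tsk range of 11.45 to 11.71, beside 12.54 and 12.34 in the other wild-type libraries. The part of these cell types in the collagen levels was not tested.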

How the data were processed

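Ribosomal-RNA-depleted, strand-marked libraries of dorsal skin RNA were compared in 6 samples grouped by their labels. The submitters' processing notes list bcl2fastq 2.19.1.403, STAR, Partek 7.0 and the build mm10. Which gene models and counting rule were used is not given in the sources used here. By the names and values of the deposited tables, the authors deposited expected counts per gene, CPM with 0.0001 added, a TMM-normalized signal and TPM. The deposited TPM values were not used.

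Expected counts were rounded and tested with edgeR 4.0.16 (R 4.3.3) by the quasi-likelihood F-test with TMM scaling, minimum count 10 and minimum total 15. Genes at a Benjamini-Hochberg adjusted p under 0.05 over all 19971 genes were called. Confidence intervals at 95% use the test's moderated degrees of freedom. Ratios use counts plus 0.5. Exon lengths, coordinates and overlaps come from GENCODE M21, where the end of every member is 1 base short of the deposited stop. Alternatives were other scalings and filters, DESeq2 1.42.0, limma 3.58.1 on counts (voom) and on log2 of the deposited CPM and TMM signal plus a pseudocount (limma-trend), a muscle covariate and leaving out each library. The fit was tested on simulated data, where false calls made up a larger share of calls than the threshold allows. It also missed part of the changes put in.

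Named partner genes are up to 4 called members per list with the smallest p. The members and lists were chosen with earlier results of these data known. Of 164 list symbols, all matched a row, 1 of them (Cert1) through a RefSeq synonym. Within groups, libraries differed beyond sampling noise, with a chi-square of at least 8.02 per degree of freedom. Depth was 17561271 to 19219622 counts per library, and intervals on reads without molecular identifiers treat them as counts only.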

Additional observations from a re-analysis of the deposited data

How the results depend on the processing

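No setting called a type VI member. Over the 10 members and 13 alternative tools, filters, scalings and the muscle covariate, 117 of 130 estimates kept their direction and side of the threshold, 10 turned sign and 3 newly passed. The 3 were Col4a2 with library totals alone, or with limma-trend on the deposited CPM at a pseudocount of 1 or 0.1, each calling 1 type IV member. Col4a3 turned to 0.23 with library totals alone, 0.20 and 0.23 on the deposited CPM at pseudocounts 1 and 0.1, 0.087 on the deposited TMM signal and 0.36 with the muscle covariate. Col6a6 turned to 0.14, 0.15, 0.16, 0.023 and 0.52 under the same settings. The cause was not tested, though the first 3 use no TMM scaling. Leaving out 1 library gave -0.21 to 0.20 for Col4a3 (0.20 without wild-type replicate 2, 0.01 without Tsk replicate 6), -0.25 to 0.27 for Col6a3 (-0.25 without wild-type replicate 1, -0.15 without Tsk replicate 6) and -0.42 to 0.26 for Col6a6 (0.26 without wild-type replicate 2, 0.01 without Tsk replicate 5). No member passed in any of these fits. Over all genes, 1791 were called with library totals alone, 1157 with no low-count filter, 1586 by DESeq2, 1871 and 1860 on the deposited CPM at pseudocounts 1 and 0.1, 1253 on the deposited TMM signal, 10 with the muscle covariate and 63 to 1381 with 1 library left out. The 5 ratios were recomputed from the deposited CPM and with 1 library left out. The differences between groups then ranged from -0.87 to -0.38 for Col4a5 to Col4a1, -0.49 to -0.22 for Col6a3 to Col6a1, -0.07 to 0.06 for Col6a1 to Col6a2 and -0.33 to 0.18 for type VI to type IV. No paired analysis was possible because the groups share no replicate number. With 3 libraries a group, intervals of the abundant members spanned more than 1 log2 unit.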
